A study of Mus musculus with 10 samples.

Results

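Crypt base columnar (CBC) stem cells sit between the Paneth cells at the bottom of the small intestinal crypt, divide daily, and give rise to all lineages of the epithelium. WNT ligands keep them in the stem cell state, NOTCH signalling keeps them from the secretory fate, and BMP signals higher in the crypt accompany differentiation. Lgr5, Ascl2, Axin2 and Tnfrsf19 mark these cells as direct products of the WNT response. The genes described here are 10 further markers that are not core WNT feedback genes, taken by name from a list of crypt base markers: Olfm4, Smoc2, Igfbp4, Cd44, Prom1, Rgmb, Slc12a2, Aqp4, Cdk6 and Soat1. They are 10 of 54838 genes listed for each library, and all 10 were among the 14719 genes abundant enough to be tested.

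The 10 libraries are poly(A) RNA-seq of jejunal crypts, 1 library per animal, from 5 WT and 5 Arid3a cKO mice. The cKO mice carried VillinCre-ERT2 and Arid3a fl/fl, so that tamoxifen removed the transcription factor Arid3a from Villin-expressing epithelial cells, differentiated cells as well as stem cells. Both genotypes received tamoxifen on consecutive days and were analysed 1 month after the first dose, and villi were removed by scraping ahead of crypt isolation. Whether the WT mice carried the Cre or floxed alleles is not given in the sources used here. The animal names in the labels begin differently in the 2 genotypes, so that a difference between colonies or litters and the effect of the genotype cannot be told apart. Because these are bulk crypts, fewer cells of a type and less RNA per cell cannot be told apart.

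Library totals were 27050455 to 31053622 expected counts. Arid3a was at 1.92, 2.07, 2.75, 2.68 and 2.69 CPM (counts scaled to library size with TMM factors) in WT replicates 1 to 5 and at 0.303, 0.516, 0.490, 0.884 and 1.17 CPM in the cKO. The 5 cKO libraries all lay under the lowest WT value, and the log2 fold change was -1.84 ± 0.32 (SE, adjusted p = 0.00204). Adjusted p-values are those of the edgeR quasi-likelihood fit, corrected over all genes tested by the Benjamini-Hochberg method, unless another tool is named. The epithelial genes Epcam, Cdh1, Krt8, Krt18, Krt19 and Cldn7 summed to 5505 to 6597 CPM in WT and 5887 to 6749 CPM in cKO, and none of the 6 passed the test.

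Of the 10 stem cell markers, 3 fell in Arid3a cKO crypts and none rose. Olfm4 and Igfbp4 each fell by close to 30% (fitted changes of -29.4% and -29.8%), and Smoc2 fell by 19.8%. The other 7 had fitted changes from -7.31% for Soat1 to -24.4% for Aqp4 and did not pass the threshold of 0.05. All 10 log2 fold changes were negative, with a median of -0.30, while over all genes tested the median was -0.03 and 54.1% were negative. Over all genes, 12.7% passed the test as lower in cKO and 15.6% as higher. The 10 markers are measured in the same animals and are not independent of each other, and their count of 3 lower was not tested against that background.

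**Figure D1:**
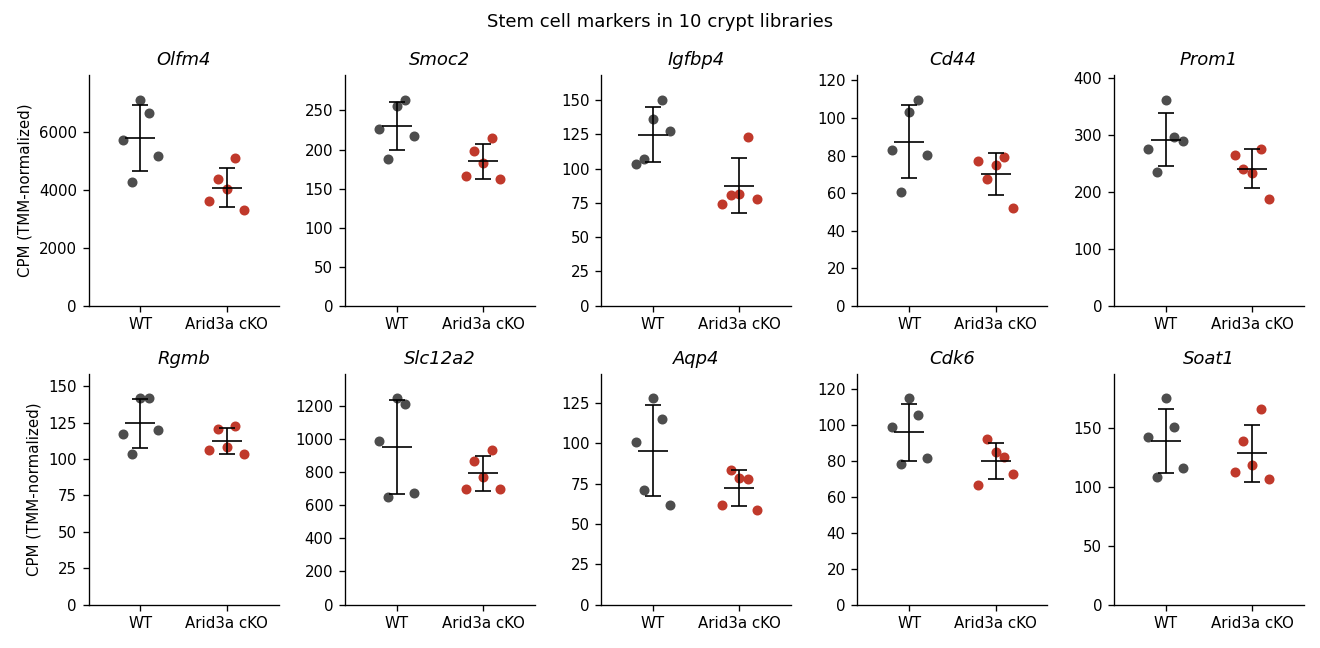
Each panel plots 1 marker, with CPM scaled by TMM factors on an axis from 0, a point for each animal, and the mean ± SD of 5 animals per group. The groups overlap in every panel. Olfm4 ran from 4273 to 7113 CPM in WT and from 3314 to 5081 CPM in cKO.

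The upstream sequences of 3 markers are printed so that the letters searched for motifs can be seen: Olfm4 and Igfbp4 because they fell, and Cd44 because its window holds the most matches. RefSeq promoter windows were found for 7 of the 10 genes, in build GRCm38.p6, as 10 windows, since Rgmb and Prom1 have several starts. The 250 bases before each start were searched on both strands for CTTTGA, the core of TCF/LEF sites, for ATTAAA, an AT-rich core bound by ARID3A, and for TGGGAA, the core of RBPJ sites in NOTCH targets. Capitals mark matches, each sequence reads 5′ to 3′ on the gene's strand, and bases that any GENCODE transcript holds as an exon are left out of the 3 long stretches. The Olfm4 stretch is chr14:80000052-80000250 on the plus strand, the Igfbp4 stretch chr11:99040994-99041243 on the plus strand and the Cd44 stretch chr2:102901666-102901915 on the minus strand. The Olfm4 site is the 26-base surrounding of the match at chr14:80000280-80000305.
Olfm4 upstream: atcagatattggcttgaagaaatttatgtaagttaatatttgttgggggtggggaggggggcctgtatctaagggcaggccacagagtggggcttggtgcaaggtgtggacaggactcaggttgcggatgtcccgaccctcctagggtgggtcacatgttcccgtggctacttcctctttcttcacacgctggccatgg
Olfm4 site: cctgagactcTGGGAAgaagccagca
Igfbp4 upstream: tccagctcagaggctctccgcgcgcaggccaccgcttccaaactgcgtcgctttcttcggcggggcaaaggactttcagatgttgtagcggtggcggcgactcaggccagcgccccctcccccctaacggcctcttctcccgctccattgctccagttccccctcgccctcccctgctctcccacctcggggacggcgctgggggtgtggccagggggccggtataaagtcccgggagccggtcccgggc
Cd44 upstream: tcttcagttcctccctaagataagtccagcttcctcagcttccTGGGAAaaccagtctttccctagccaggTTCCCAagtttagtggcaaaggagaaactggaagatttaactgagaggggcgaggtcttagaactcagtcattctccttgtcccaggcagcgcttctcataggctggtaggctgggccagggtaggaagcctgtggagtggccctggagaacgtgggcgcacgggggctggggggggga

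None of the 10 windows held CTTTGA, which 13.8% of all 32851 RefSeq windows of this length hold. ATTAAA was found in 1 member window, 90 bases before a start of Prom1, and 12.7% of all windows hold it. TGGGAA was found in 3 member windows, at 12 bases before the Olfm4 start, at 207 and 179 bases before the Cd44 start and at 116 bases before a start of Prom1, and 21.6% of all windows hold it. No matches overlapped. A match to these letters does not show a bound site, and their lack in a window does not show that a factor is not at work elsewhere in the gene.

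Olfm4 (chromosome 14, 79984081 to 80023139, plus strand, GRCm38) encodes a secreted olfactomedin-family glycoprotein and is the most abundant of the markers per length. It was at 5701, 4273, 7113, 6651 and 5152 CPM in WT replicates 1 to 5 and at 3608, 4358, 4023, 5081 and 3314 CPM in cKO replicates 1 to 5. WT replicate 2 lay inside the cKO range, and cKO replicates 1, 3 and 5 lay below every WT library. Its WT mean was 5778 ± 1141 CPM and its cKO mean 4077 ± 688 CPM (SD, n = 5), and the log2 fold change of -0.50 ± 0.15 (SE) passed with an adjusted p of 0.0250. The call was lost when any of WT replicates 3 and 4 or cKO replicates 1, 3 and 5 was left out, with log2 fold changes of -0.50 to -0.42 and adjusted p of 0.0501 to 0.0649 in edgeR's test.

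Smoc2 (chromosome 17, 14279506 to 14404790, plus strand), which encodes a secreted calcium-binding matricellular protein, was at 226.3, 188.5, 256.3, 264.0 and 217.3 CPM in WT and at 166.6, 197.5, 182.4, 215.3 and 162.4 CPM in cKO. As with Olfm4, WT replicate 2 was the WT library inside the cKO range and cKO replicates 1, 3 and 5 lay below every WT library. Its log2 fold change was -0.32 ± 0.10 (SE, adjusted p = 0.0381). The call was lost without any 1 of WT replicates 1, 3, 4 and 5 or cKO replicates 1, 3 and 5 (log2 fold changes of -0.32 to -0.26) and, by a small margin, with effective gene length as an offset (adjusted p = 0.0504).

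Igfbp4 (chromosome 11, 99041244 to 99054392, plus strand) encodes a secreted protein that binds insulin-like growth factors. It was at 103.2, 107.0, 136.2, 150.5 and 127.4 CPM in WT and at 74.1, 81.2, 81.4, 123.4 and 78.2 CPM in cKO. Of the cKO libraries, 4 lay close together below every WT library, and replicate 4 stood inside the WT range. The log2 fold change was -0.51 ± 0.15 (SE, adjusted p = 0.0257), and -0.66 (adjusted p = 0.00353) without cKO replicate 4. Replicate 4 was the highest cKO library, so leaving it out enlarges the fall by construction. That library also had the highest sum of 12 stromal and endothelial markers, 137.3 CPM against 10.7 to 26.9 CPM in the other cKO libraries and 16.1 to 88.9 CPM in WT. Of those markers 11 were tested, Acta2 and Pecam1 passed as lower and none as higher, and Cdh5 was too low to test. The part of such cells in the Igfbp4 values was not tested. The call was lost without any 1 of WT replicates 3, 4 and 5 or cKO replicates 1, 2, 3 and 5 (log2 fold changes of -0.49 to -0.43) and without a filter on low counts (adjusted p = 0.0511).

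Among the surface markers, Cd44 (chromosome 2, 102811141 to 102901665, minus strand), the receptor for hyaluronan, was at 83.1, 60.7, 103.0, 109.8 and 80.3 CPM in WT and at 77.3, 67.6, 74.8, 79.4 and 51.8 CPM in cKO. Its 4 higher WT libraries lay above every cKO library, while WT replicate 2 lay below all but 1 of them, and the log2 fold change was -0.32 ± 0.16 (SE, adjusted p = 0.163). Leaving WT replicate 2 out brought Cd44 past the threshold (-0.42, adjusted p = 0.0347). That library was the lowest in WT, so leaving it out enlarges the fall by construction.

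Prom1 (chromosome 5, 43993620 to 44102032, minus strand), a membrane glycoprotein of cell protrusions, was at 274.8, 235.0, 362.6, 297.3 and 289.6 CPM in WT and at 265.0, 241.3, 233.2, 275.9 and 187.9 CPM in cKO. WT replicates 3, 4 and 5 lay above every cKO library and the log2 fold change was -0.28 ± 0.12 (SE, adjusted p = 0.105). An antisense gene, Gm16401, overlaps Prom1 but held a mean of only 26.2 counts per library. Rgmb (chromosome 17, 15803188 to 15831039, minus strand), a membrane-anchored co-receptor for BMP ligands, ranged from 103.2 to 141.7 CPM in WT and from 103.2 to 122.9 CPM in cKO, and its log2 fold change was -0.15 ± 0.09 (SE, adjusted p = 0.243).

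The transporters varied most among the WT animals. Slc12a2 (chromosome 18, 57878678 to 57946821, plus strand) encodes the basolateral cotransporter of sodium, potassium and chloride, and was at 990.0, 650.7, 1246, 1209 and 673.1 CPM in WT and at 695.5, 865.9, 772.8, 932.5 and 695.5 CPM in cKO. WT replicates 2 and 5 lay below every cKO library and the other 3 above every cKO library, a WT coefficient of variation of 29.8% against 13.3% in cKO. The log2 fold change was -0.27 ± 0.19 (SE, adjusted p = 0.309). Aqp4 (chromosome 18, 15389496 to 15410982, minus strand), a water channel, was at 101.0, 71.1, 127.8, 115.3 and 61.7 CPM in WT and at 62.0, 83.7, 78.4, 77.8 and 58.9 CPM in cKO. The same WT libraries, replicates 2 and 5, were low, and the log2 fold change was -0.40 ± 0.20 (SE, adjusted p = 0.152). Leaving WT replicate 5 out brought Aqp4 past the threshold (log2 fold change -0.50, adjusted p = 0.0465). It was the lowest WT library for Aqp4, so its omission enlarges the fall by construction.

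Of the intracellular markers, Cdk6 (chromosome 5, 3341485 to 3531008, plus strand) encodes a kinase that pairs with D-type cyclins to phosphorylate the retinoblastoma protein. It was at 98.9, 77.9, 114.7, 105.4 and 81.6 CPM in WT and at 66.8, 91.8, 84.7, 82.3 and 72.5 CPM in cKO, with a log2 fold change of -0.27 ± 0.12 (SE, adjusted p = 0.109). Again WT replicates 2 and 5 lay inside the cKO range, and leaving WT replicate 2 out brought Cdk6 past the threshold (-0.33, adjusted p = 0.0430). WT replicate 2 was the lowest WT library for Cdk6, so this omission enlarges the fall by construction. Soat1 (chromosome 1, 156424525 to 156474331, minus strand), the endoplasmic reticulum enzyme that esterifies cholesterol, was at 142.6, 108.1, 175.0, 150.9 and 115.7 CPM in WT and at 112.7, 138.6, 118.1, 165.9 and 106.3 CPM in cKO. It had the smallest log2 fold change of the 10, -0.11 ± 0.15 (SE, adjusted p = 0.616).

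None of the 10 markers separated the 5 cKO from the 5 WT libraries fully, while 7.63% of all genes tested had every cKO library below every WT library. Igfbp4 came nearest, with 4 cKO libraries below the lowest WT library, followed by Olfm4 and Smoc2 with 3 each. The overlap followed the same animals from gene to gene. WT replicates 3 and 4 lay above the WT mean in 10 of 10 markers and WT replicate 2 in 0 of 10, where it was the lowest WT library in 8. In the cKO, replicate 4 lay above the group mean in 10 of 10 markers and replicate 5 in 0 of 10. Averaged over the markers, the WT libraries stood -0.01, -0.34, 0.30, 0.23 and -0.18 from the WT mean on the log2 scale, and the cKO libraries -0.41, -0.21, -0.30, -0.06 and -0.53. On this average WT replicate 2 was lower than 3 of the 5 cKO libraries, and cKO replicate 4 was higher than WT replicates 2 and 5.

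**Figure D2:**
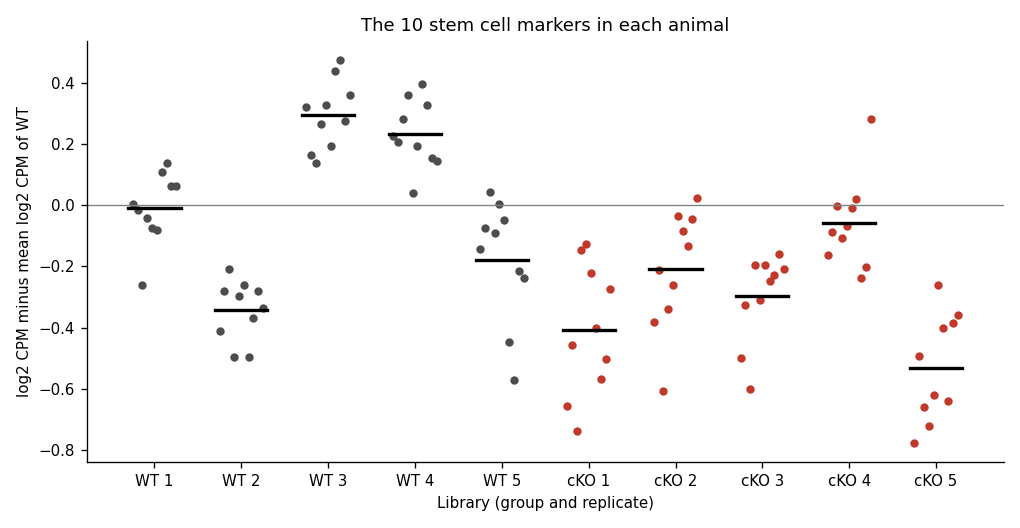
For each library the 10 points are the markers, each as log2 CPM minus the mean log2 CPM of the 5 WT libraries, and the bar is their mean. The bars run from -0.34 to 0.30 in WT and from -0.53 to -0.06 in cKO.

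Leaving out both WT replicates 3 and 4 left 0 markers past the threshold in edgeR's test and 0 at an unadjusted p under 0.05, with a median log2 fold change of -0.11. Both libraries lay above the WT mean in 10 of 10 markers, so leaving them out lowers the WT level of each marker by construction. The loss of calls in this fit is therefore no test of how robust the calls are. Over all genes, the share that passed as lower fell to 4.45% in that fit. In the fits that left out 1 animal, the count was 0 without WT replicate 3, WT replicate 4, cKO replicate 1, cKO replicate 3 or cKO replicate 5, where 3 or 4 markers had an unadjusted p under 0.05, and 6 without WT replicate 2. The share of all genes that passed as lower was 7.59% to 9.76% in the 5 fits with a count of 0 and 14.1% without WT replicate 2. The median of the 10 log2 fold changes stayed negative in each of these fits. With all animals, DESeq2 and limma-voom also called 3 markers, the same Olfm4, Smoc2 and Igfbp4.

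The WNT feedback genes, which share the stem cell compartment with these markers, were compared as a list of 10 genes. Of the 9 tested, 4 fell and none rose, with a median log2 fold change of -0.37, where 12.7% of all genes passed as lower. The count of 4 dropped to 2 without WT replicate 3, WT replicate 4, cKO replicate 1 or cKO replicate 5, and to 1 without both WT replicates 3 and 4. The share of all genes that passed as lower was 7.59% to 9.14% in those single omissions and 4.45% in the double one. Summed over the list, WT replicates 3 and 4 were the highest WT libraries (654.1 and 608.0 CPM). Leaving them out therefore lowers the WT level of the list by construction. Tnfrsf19 was lowest (22.7 ± 5.36 to 12.2 ± 3.32 CPM, mean ± SD, log2 fold change -0.89, adjusted p = 0.00913) and Sp5, a WNT-induced repressor, highest at 0.18 (adjusted p = 0.345). Axin2, the scaffold of the destruction complex, averaged 213.1 ± 33.0 CPM in WT and fell to 155.5 ± 12.7 CPM (-0.46 on the log2 scale, adjusted p = 0.00746). Ascl2, a transcription factor of the stem cell state, averaged 30.6 ± 6.09 CPM in WT and 20.6 ± 4.83 CPM in cKO (-0.57 on the log2 scale, adjusted p = 0.0284), and Nkd1 also passed the test. The Ascl2 call was lost without a filter on low counts (adjusted p = 0.0654) and without any 1 of WT replicates 2, 3 and 4 or cKO replicates 1, 3 and 5 (log2 fold changes of -0.57 to -0.47, adjusted p of 0.0508 to 0.0683). Lgr5, the R-spondin receptor, ranged from 27.5 to 70.4 CPM in WT and from 37.4 to 55.7 CPM in cKO, so that the cKO libraries lay inside the WT range, with a log2 fold change of -0.17 ± 0.26 (SE, adjusted p = 0.653).

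A list of 18 other stem cell markers, all tested, held 7 genes that fell and none that rose, with a median log2 fold change of -0.29. The share of all genes that passed as lower was 12.7%. Without WT replicate 4 the count was 4, where 7.59% of all genes passed as lower. Without both WT replicates 3 and 4 it was 0 in edgeR's test, where 4.45% of all genes passed as lower. In that fit 6 were lower at an unadjusted p under 0.05, a level at which the share of all genes was not counted. These 2 libraries had the highest WT sums of the list (4453 and 4092 CPM), so leaving them out lowers its WT level by construction. The 7 that fell with all animals were Scn2b (log2 fold change -0.73), Mex3a (-0.65), Clca3b (-0.61), Nav1 (-0.58), Msi1 (-0.56), Cdca7 (-0.38) and Ephb2 (-0.33). Msi1 and Mex3a are RNA-binding proteins, and Ephb2 is the receptor whose gradient keeps cells in place along the crypt. The highest was Cyp2e1 at 0.13 (adjusted p = 0.701). The medians of the 3 lists, -0.30, -0.37 and -0.29, were close, and no difference between the lists was tested.

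**Figure D3:**
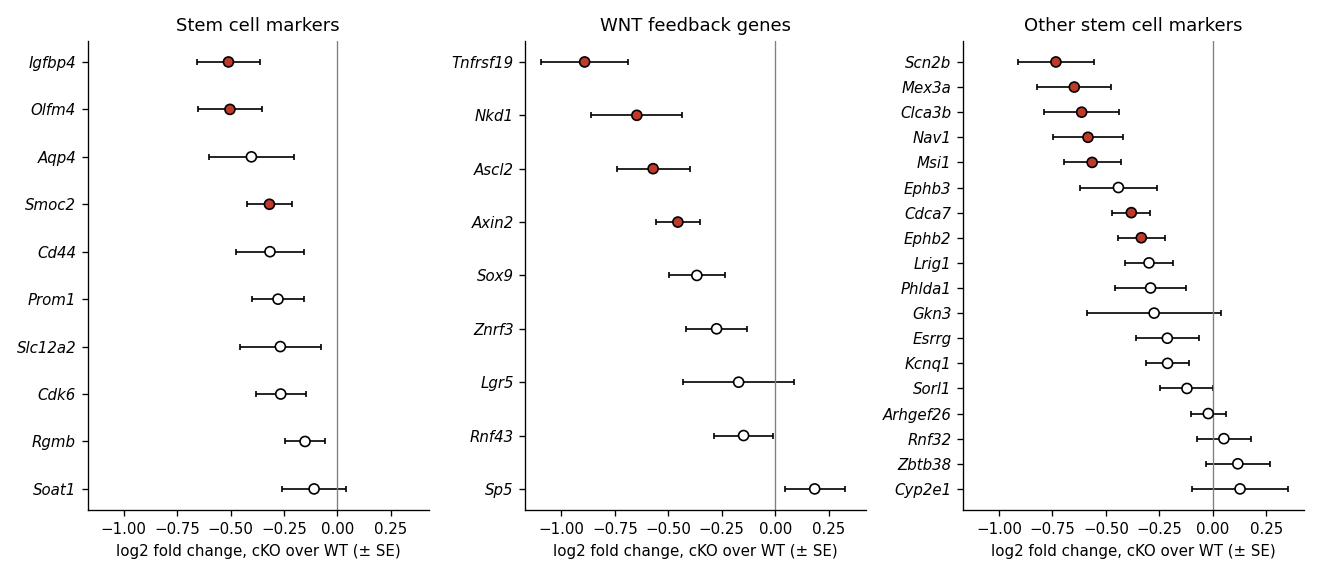
Each point is the log2 fold change of a gene, cKO over WT, with its SE, for the 10 markers, the 9 tested WNT feedback genes and 18 other stem cell markers. Filled points passed an adjusted p of 0.05, which holds for 3, 4 and 7 genes, all of them lower in cKO.

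The ratio of each marker to Lgr5 in the same library was compared between the groups with a two-sided exact permutation test over all assignments of 5 and 5 animals, as 10 comparisons. None passed 0.05 after Benjamini-Hochberg correction over the 10. Olfm4 had a mean log2 ratio to Lgr5 of 6.92 ± 0.37 in WT and 6.52 ± 0.11 in cKO (SD, n = 5), a difference of -0.40 (exact permutation p = 0.0238, corrected p = 0.238). The other 9 ratios had differences of -0.42 (Igfbp4) to -0.01 (Soat1) with exact p from 0.0556 to 0.968. The ratio of Slc12a2 to Lgr5 varied little among WT animals (4.29 ± 0.18, SD) although both genes varied widely there. Against the mean of the 6 epithelial genes, Olfm4 had a difference of -0.52 (exact permutation p = 0.0476), Igfbp4 of -0.55 (p = 0.0317) and Smoc2 of -0.34 (p = 0.0556), and each of these had a corrected p of 0.159.

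The closest relatives of the markers moved both ways. Of 17 relatives tested, 3 fell and 5 rose, where 12.7% of all genes tested passed as lower and 15.6% as higher. The intestinal cholesterol acyltransferase Soat2 rose by 1.08 on the log2 scale, from 22.5 ± 10.1 to 47.5 ± 10.5 CPM (adjusted p = 0.0248), while Soat1 did not pass. The Soat2 call was lost without a filter (adjusted p = 0.0758) and without any 1 of WT replicates 3 and 5 or cKO replicates 1, 4 and 5 (log2 fold changes of 0.96 to 1.05, adjusted p of 0.0517 to 0.0631). In TPM, the transcript share that RSEM gives after dividing by gene length, the log2 ratio of Soat1 to Soat2 went from 2.16 ± 0.79 to 0.61 ± 0.45 (SD, n = 5), with no overlap between the groups (exact permutation p = 0.00794, the smallest that 5 against 5 can give, and 0.0556 after correction over 7 ratios). Beside Aqp4, the water channels Aqp3, Aqp7, Aqp8 and Aqp11 rose (log2 fold changes 1.64, 2.12, 1.94 and 0.81), of which Aqp11 was the most abundant per length (24.7 ± 5.56 to 41.3 ± 3.64 TPM, mean ± SD). Aqp3, Aqp7 and Aqp8 were at low levels, with WT means of 2.4, 1.4 and 0.44 CPM. Aqp1 was more abundant than these, with 165.5 ± 31.3 TPM among WT and 133.2 ± 29.7 TPM among cKO animals, and did not pass (adjusted p = 0.246).

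Cdk4, the partner kinase of Cdk6, fell by 0.33 on the log2 scale (286.9 ± 17.5 CPM in WT, 227.8 ± 11.4 CPM in cKO, adjusted p = 0.00361), with the lowest WT library at 264.2 and the highest cKO library at 242.6 CPM. Its fold change was close to that of Cdk6, and their log2 TPM ratio differed by 0.03 between the groups (exact permutation p = 0.905). Cdk4 is the more abundant per length, at 482.5 TPM in WT against 13.8 TPM for Cdk6. Of 9 partners of the G1 kinases, Ccnd1 (log2 fold change -0.47) and Ccnd2 (-0.37), the cyclins, fell as well, and Rb1 (0.62) and the inhibitor Cdkn1a (0.78) rose. As shares of all genes tested, 12.7% passed as lower and 15.6% as higher.

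Igfbp5, a relative of Igfbp4 that was far less abundant per length (1.20 TPM in WT against 101.2 TPM), averaged 5.48 ± 3.98 CPM in WT and 0.893 ± 0.551 CPM in cKO and passed as lower (-2.62 on the log2 scale, adjusted p = 0.0151). Slc12a4 fell at a level under 1 CPM, while Slc12a7, in TPM the most abundant relative of Slc12a2, stood at 0.12 on the log2 scale (adjusted p = 0.253). Smoc1 and Rgma, relatives of Smoc2 and Rgmb, were near 1 CPM or below in both groups and did not pass, and Prom2 was too low to test.

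The pathways that act on these cells were described by lists as well. Among all genes tested, 12.7% passed as lower and 15.6% as higher in cKO. Of 9 NOTCH genes 4 fell and none rose: the ligands Dll1 (log2 fold change -0.26) and Dll4 (-0.40), the target Nrarp (-0.57) and Atoh1 (-0.31), the secretory fate factor that NOTCH represses. Hes1, another NOTCH target, did not pass (log2 fold change -0.10, adjusted p = 0.572). Notch1 had -0.58 (adjusted p = 0.0605) and Rbpj -0.08 (adjusted p = 0.486). Of 13 tested BMP genes, for which Rgmb is a co-receptor, none fell and 2 rose, the inhibitory Smad7 (log2 fold change 0.44) and the ligand Bmp2 (0.57), while Id1, a target of BMP signals, had the lowest value at -0.18 (adjusted p = 0.389).

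Markers of other cells moved in both directions, beside shares of 12.7% lower and 15.6% higher over all genes tested. All 10 enterocyte markers rose (median log2 fold change 1.68), and their sum was 2302 to 9846 CPM in WT and 11370 to 20680 CPM in cKO, with no overlap. Within WT, the sum was highest in replicate 2 at 9846 CPM, where most stem cell markers were lowest, and lowest in replicates 4 and 3 at 2302 and 3636 CPM, where they were highest. Within cKO the highest sum, 20680 CPM, was likewise in replicate 5, the lowest for 7 markers, but replicate 4, the highest for 8 markers, had the next highest sum at 19610 CPM, and the sums of replicates 1, 2 and 3 were 16380, 15110 and 11370 CPM. Of 9 Paneth cell markers 8 fell (median -0.72), with sums of 19690 to 29210 CPM in WT and 12410 to 16800 CPM in cKO. Of 10 markers of cycling cells 6 fell (median -0.35), with sums of 2047 to 2329 CPM and 1566 to 1893 CPM. The part of a changed mixture of cells in the stem cell marker values was not tested.

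None of 7 goblet cell markers passed (median 0.10), 3 of 6 enteroendocrine markers rose (median 0.43), and 3 of 5 tested tuft cell markers rose (median 0.21). The share of all genes tested that passed as higher was 15.6%, and as lower 12.7%. Of 12 immune cell markers, Jchain fell and none rose, and their sum was 122.9 to 299.7 CPM in WT and 106.7 to 260.4 CPM in cKO.

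**Figure D4:**
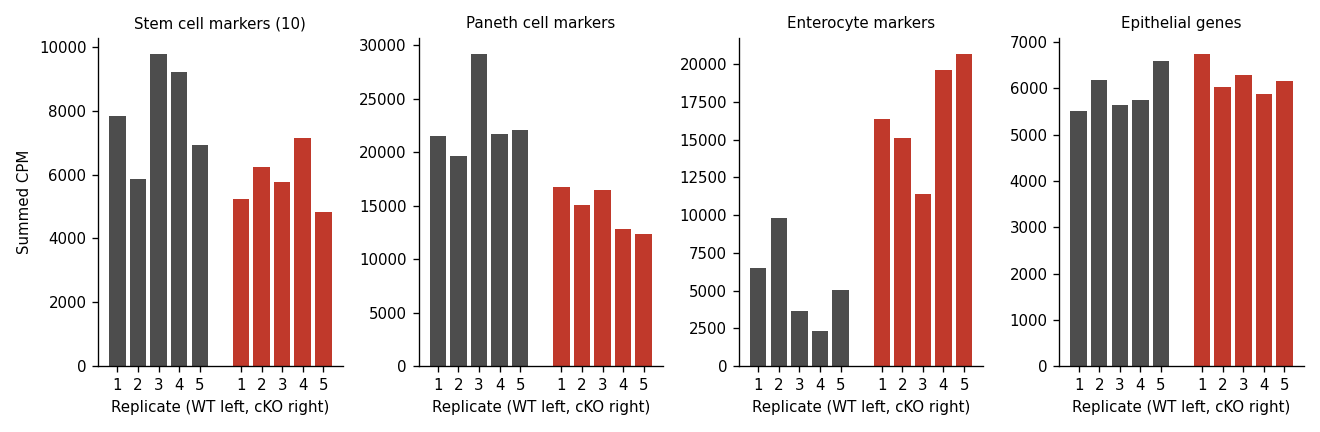
Bars give the summed CPM of 4 lists in each library, WT replicates 1 to 5 in grey and cKO replicates 1 to 5 in red, each panel on its own axis from 0. Enterocyte sums reach 9846 CPM at most in WT and start at 11370 CPM in cKO, while sums of the 10 stem cell markers overlap (5875 to 9777 and 4830 to 7157 CPM) and depend mostly on Olfm4.

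Levels of the markers among themselves were compared in TPM. In WT crypts Olfm4 led at 3153 ± 827 TPM (SD, n = 5), followed by Slc12a2 at 194.3 ± 66.8, Prom1 at 153.5 ± 25.9, Smoc2 at 114.6 ± 21.0, Igfbp4 at 101.2 ± 22.1, Soat1 at 57.7 ± 9.13, Rgmb at 34.8 ± 6.60, Cd44 at 32.3 ± 10.8, Aqp4 at 28.0 ± 10.7 and Cdk6 at 13.8 ± 4.0 TPM. The means in cKO crypts stood in the same order, from 1931 ± 379 TPM for Olfm4 to 9.56 ± 0.859 TPM for Cdk6. Within single libraries the order held for nearly all neighbours. Slc12a2 was above Prom1 in 4 of 5 WT and 5 of 5 cKO libraries, Rgmb above Cd44 in 4 of 5 WT and 5 of 5 cKO libraries and Cd44 above Aqp4 in 5 of 5 WT and 4 of 5 cKO libraries, and these pairs were not set apart beyond their spread.

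The differences were larger in TPM than in counts for each of the 10 markers. Igfbp4 had a log2 TPM difference (pseudocount 0.1) of -0.72 and Olfm4 of -0.69, and 5 markers passed limma's test of TPM, with adjusted p over all genes of 0.0143 for Igfbp4, 0.0190 for Soat1, 0.0225 for Olfm4, 0.0305 for Smoc2 and 0.0446 for Prom1. The share of all genes that passed as lower was 18.6% in that fit, against 12.7% in the test of counts. Over all genes the median log2 difference was -0.13 in TPM and -0.03 in the test of counts, so a shift of that size is shared by the whole table. Soat1 moved most between the scales. Its TPM mean was 57.7 ± 9.13 in WT and 41.3 ± 7.88 in cKO, a log2 difference of -0.49, against -0.11 in counts.

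**Figure D5:**
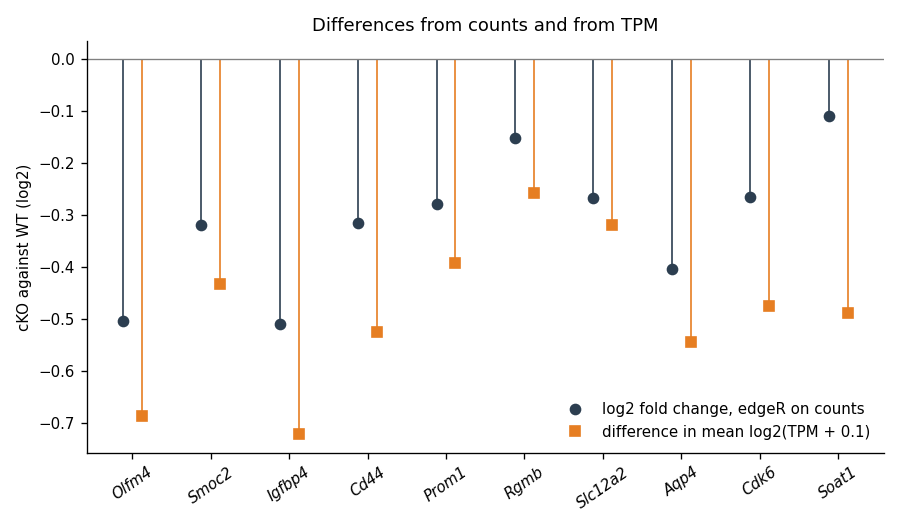
For each marker the circle is the log2 fold change that edgeR gives from counts and the square the difference in mean log2(TPM + 0.1), cKO against WT. Soat1, at -0.11 and -0.49, has the widest gap.

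RSEM gives each gene a length per library, weighted by the estimated abundance of its transcripts, and TPM is divided by it. For Soat1, with 8 annotated transcripts, this length was 3348, 2942, 3415, 3391 and 2828 bases in WT and 3960, 3804, 3665, 4064 and 3769 bases in cKO. Every cKO library had a longer Soat1 estimate than every WT library (exact permutation p = 0.00794, corrected over the 10 markers 0.0794). Of 11860 tested genes whose length varies, 2.86% were longer in every cKO library and 59.7% had a longer cKO mean. With effective length as an offset in edgeR's test of counts, Soat1 passed (log2 fold change -0.37, adjusted p = 0.0338), while over the other fits with all animals to counts its lowest adjusted p was 0.267.

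The length estimates of Olfm4 (2493 ± 63.2 bases in WT and 2653 ± 67.0 in cKO, SD, n = 5, exact permutation p = 0.0159), Igfbp4 (1703 ± 44.5 and 1826 ± 100 bases, exact permutation p = 0.0317) and Cd44 (3690 ± 266 and 4018 ± 97.1 bases, exact permutation p = 0.0357) had longer means in cKO, with overlap between the groups, and none had a p under 0.05 after correction over the 10 markers (0.0795 to 0.0893). Slc12a2 has 1 annotated transcript and a fixed length of 6520 bases. Its difference in mean log2 TPM was -0.32, and its log2 fold change from counts was -0.27 in edgeR's fit and -0.22 in limma-voom. These values come from unlike estimators, so the gap between the scales depends on which is used.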

How the data were processed

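RNA-seq libraries of jejunal crypts from 5 WT and 5 Arid3a cKO mice were grouped by the labels. The authors ran nf-core/rnaseq with STAR and RSEM on GRCm38 (Ensembl annotation) and deposited, per library, the expected count, TPM and FPKM of each gene with its length and effective length, unfiltered. The deposited FPKM values were not used here. RSEM shares a read among matching genes and transcripts, so 11.04% of the expected counts were not whole (no tolerance), and near-identical genes are uncertain. Whether counting used strand is not given in the sources used here, so antisense partners may share counts. Rows without a gene symbol (0.0193% of counts) carry a gene identifier and were kept.

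Expected counts were rounded and fitted in R 4.3.3 with edgeR 4.0.16 (filterByExpr with minimum count 10 and minimum total 15, TMM, robust quasi-likelihood test of genotype) over 14719 genes, with a threshold of 0.05 after Benjamini-Hochberg adjustment. The study's term for time has 1 level here. For single values, exact permutation tests, two-sided, were run (SciPy 1.17.1, NumPy 2.4.6) on log2(CPM + 0.5) or log2(TPM + 0.1). Alternatives used DESeq2 1.42.0, limma 3.58.1, other scalings, filters, an offset, a replicate block and omitted animals. Scripts were tested on simulated data. The markers and lists were chosen with earlier results of these data known. Named genes were Arid3a, the 10 markers, Lgr5, Ascl2, Axin2, relatives of markers, and the extremes of each list. Genes of a list that passed the test were named after their values were seen. Positions are from GENCODE M21, and Arid3a at 1.17 CPM in cKO replicate 5 stands for 31 counts. Replicates are separate animals.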

Additional observations from a re-analysis of the deposited data

Results flagged for a closer look

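Igfbp4 in cKO replicate 4, at 123.4 CPM, stood apart from the other 4 cKO libraries, the nearest of which was at 81.4 CPM. The gap was 0.852 of the group's range, above Dixon's 95% critical value of 0.71 for 5 samples. It was 1 such value among 22 groups examined (Arid3a and the 10 markers in each genotype), and chance flags about 1 group in 20. The log2 fold change of Igfbp4 was -0.51 with this library and -0.66 without it. Leaving out the highest cKO library enlarges the fall by construction.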

How the results depend on the processing

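Against 3 markers past the threshold in edgeR's test, there were 6 with library size alone (Olfm4, Smoc2, Igfbp4, Cdk6, Prom1 and Rgmb), 5 with limma on log2(TPM + 0.1) and 5 on log2(TPM + 1), 0 with WT replicates 3 and 4 both left out, and 0 to 6 when 1 animal was left out. Library size alone moved the median of all genes from -0.03 to -0.16 and the calls over all genes from 2298 higher and 1869 lower to 1541 higher and 4030 lower. The TPM fit gave 1399 higher and 2742 lower. Without a filter 2 markers passed, where 5.18% of 27960 genes tested passed as lower. The median log2 fold change of the markers was -0.38 to -0.22 over the fits without 1 animal. With WT replicates 3 and 4 both left out the sign turned for Slc12a2 (0.0397), Soat1 (0.072) and Lgr5 (0.20), where the cause was not tested. Both libraries lay above the WT mean in each of the 10 markers, so this fit shifts the marker fold changes upward by construction. Of 220 marker values under 22 alternatives each, 218 were negative. All 10 markers were negative in the main fit and the alternatives reuse the same libraries, so these values are not independent of each other. Replicate numbers were not treated as pairs of animals. The correlations of same-numbered deviations were -0.157, -0.0361, 0.131, -0.141 and -0.152, which cannot settle whether the numbers pair animals. With the replicate block 3 markers passed, the median over all genes was -0.03, and 3052 instead of 4167 genes passed. In that fit 7 markers had an unadjusted p under 0.05 in edgeR's test, against 5 without the block. The share of all genes under that unadjusted p was not counted in either fit, so these counts are no result about the markers.

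Genes near 1 CPM carry few counts, such as 31 for Arid3a at 1.17 CPM in cKO replicate 5, and a large counting error. All markers had at least 1369 counts in each library, so the spread between animals limits them.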
